A study of Mus musculus with 8 samples.

Results

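Proximal tubules taken 48 h after cisplatin were compared with proximal tubules at 0 h. The comparison used 4 of the 8 libraries of the series, 2 at 48 h and 2 at 0 h, chosen by their labelled time alone. The 48 h group came from C57BL/6 mice, male according to the treatment protocol, that had received cisplatin into the peritoneum at 30 mg/kg. The 0 h group came from the same strain, and its labels list no dose and no vehicle. The treatment text is the same for every sample, and it does not say whether the 0 h mice were injected or how old either group was. Proximal tubular cells were isolated from cortex, the RNA was depleted of ribosomal RNA, and the library kit is one that the labels name for small RNA. The duplicates are labelled biological, with no statement on whether different animals gave them, and p-values thus measure only the spread between these libraries. With 2 libraries against 2, the smallest 2-sided exact p is 0.333, so no p is given for single values per library.

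Cisplatin is a platinum drug that binds DNA and forms cross-links within and between its strands. The proximal tubule takes it up from the blood through organic cation transporters and copper transporters, and injury of this segment limits the use of the drug. The healthy segment reabsorbs most of the filtered glucose, amino acids, phosphate and protein across a brush border, makes glucose from non-sugar precursors, and depends on mitochondria. Damaged DNA stabilises p53, the transcription factor that drives cell cycle arrest and death genes, and injured tubule cells switch on surface and secreted proteins that the healthy tubule makes at low levels.

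Gene values are FPKM, fragments scaled to gene length and to the mapped fragments of the library, with 1 value per gene row and library. Fold changes are log2 differences on the log2(FPKM + 1) scale with their standard error (SE), 48 h minus 0 h, and a row was called at an adjusted p under 0.05 in limma with Benjamini-Hochberg adjustment. Libraries are named by time and by the letter a or b of their column. Deposited FPKM summed to 448667 and 452114 at 0 h and to 314173 and 317983 at 48 h, and their depth is unknown. Rows of mt-Co1, a mitochondrially encoded subunit of cytochrome oxidase, held 19149 and 18120 FPKM at 0 h, were listed at 0 in both 48 h libraries and both 24 h libraries, and held 16677.5 and 17070.7 at 72 h. Rows of Tex14, Ints2 and Lig3 were listed at 0 in both 0 h libraries and at 5.75 to 141 FPKM at 48 h, and each also spans other genes. Low values were more common at 48 h, as in the 1325 olfactory and vomeronasal receptor rows, genes known mainly from sensory tissue. Of these rows 30 and 36 reached 0.01 FPKM at 0 h and 329 and 291 at 48 h. Pearson's r across genes was 0.994 between the 0 h libraries and 0.99 between those of 48 h.

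Markers of the proximal tubule were abundant at 0 h and had fallen by 48 h. The phosphate cotransporter gene Slc34a1 stood at 1396 and 1483 FPKM at 0 h and 265 and 278 at 48 h, and the megalin gene Lrp2, whose product is the main receptor for filtered protein, at 1180.03 and 1429.7 at 0 h and 388 and 459 at 48 h. All 10 markers of the segment fell, and their summed level went from 6422 and 6909 FPKM at 0 h to 1856 and 1933 at 48 h. In such bulk samples, fewer cells of a type and less RNA per cell cannot be told apart. This holds for every gene group below.

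Of 10757 rows tested, 7585 were called (70.5%), 3061 of them higher (28.5%) and 4524 lower (42.1%), and in 9299 rows (86.4%) no 48 h value lay within the 0 h range or the reverse. Counts of list members below are read against these shares. Most rows had groups without overlap, so that alone does not mark out a gene named below. By at least 2-fold, 783 rows were higher and 1569 lower. The balance moved with the scaling: limma with Benjamini-Hochberg adjustment called 3750 rises and 3910 falls once library medians were equalised, and 3678 and 3769 by quantile normalisation. The median change of all tested rows was -0.13, and the scalings shifted it by 0.127 and 0.129, so medians of gene lists are given relative to it. Falls were more common among abundant rows. Of the 491 rows with a mean of at least 100 FPKM over the 8 libraries, 61.7% fell and 25.1% rose, while of the 1897 rows with a mean under 2 FPKM, 26.6% fell and 30.8% rose. The 15 rows that lost the most FPKM held 35.01% of all the FPKM lost, with mt-Co1, mt-Atp8, mt-Nd3 and the androgen-regulated kidney gene Kap at their head. mt-Co1 alone held 10.6% of all the FPKM lost, and its 0 at 48 h may be a failed estimate.

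**Figure D1:**
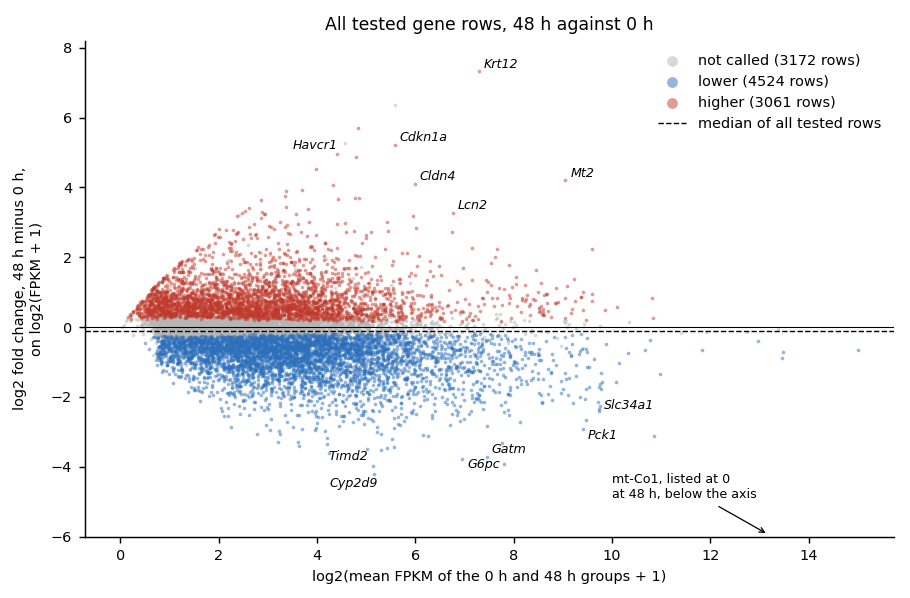
Each point is 1 of the 10757 tested gene rows, with log2 of its mean FPKM + 1 over the 0 h and 48 h groups on the horizontal axis and its log2 fold change on the vertical axis. Red rows were called higher (3061), blue rows lower (4524) and grey rows were not called (3172); the dashed line is the median of all tested rows, -0.13, and the named falls Pck1 and Slc34a1 lie among the abundant rows at the right.

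The largest rise lay in the row named Krt12, which also spans Krt20, a keratin of simple epithelium, at 0.793 and 1.09 FPKM at 0 h and 313 and 309 at 48 h, a log2 change of 7.33 ± 0.133. The 4 libraries separate by group with a wide gap, and the row cannot be split between these keratins. Several known targets of p53 were also among the largest rises. They are named here for the size of their rise, and p53 targets were not examined as a set. Cdkn1a, which encodes the p21 inhibitor of cyclin-dependent kinases, stood at 1.34 and 1.67 FPKM at 0 h and 93.9 and 89.9 at 48 h (5.22 ± 0.0963). Plk2 and Btg2 rose less than Cdkn1a, by changes close to each other in size. Plk2, a kinase gene of the damage response, reached 53.8 and 50.8 FPKM at 48 h, against 3.48 and 2.81 in the 0 h libraries (3.69 ± 0.0856). The antiproliferative gene Btg2 reached 49.3 and 50.2 FPKM at 48 h, against 2.67 and 3.23 in the 0 h libraries (3.69 ± 0.0868). Pmaip1, which encodes the death-promoting BH3 protein Noxa, stood at 1.83 and 2.48 FPKM at 0 h and 39.5 and 37.9 at 48 h (3.66 ± 0.0989), and Phlda3, a p53-induced inhibitor of AKT, at 0.745 and 0.769 at 0 h and 18.9 and 17.1 at 48 h (3.43 ± 0.0934). In each of these 5 genes the 48 h duplicates were close to each other.

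Genes known from injured tubule cells also rose. Havcr1, the gene of the kidney injury molecule KIM-1 that lets tubule cells engulf debris, stood at 0.328 and 0.266 FPKM at 0 h and 32.9 and 47.2 at 48 h (4.96 ± 0.141), and read 2.46 and 2.53 FPKM at 24 h and 259.5 and 262 at 72 h. Lcn2, which encodes the iron-carrier binding protein lipocalin 2, stood at 18.97 and 19.6 at 0 h and 193 and 197 at 48 h (3.27 ± 0.0651). Timp1, an inhibitor of matrix metalloproteinases, stood at 0.422 and 0.312 at 0 h and 13.2 and 11.7 at 48 h (3.30 ± 0.0887). Both duplicates of 48 h exceeded both of 0 h in all of them, although the 48 h libraries of Havcr1 differed more from each other than those of Lcn2. The tight junction gene Cldn4 went from 6.14 and 5.79 to 119.8 and 117 FPKM (4.10 ± 0.0615) and the urokinase receptor gene Plaur from 1.33 and 1.16 to 37.6 and 36.2 FPKM (4.08 ± 0.0803). The stress transcription factor gene Atf3 reached 24.1 and 22.5 FPKM at 48 h after 27.9 and 26.5 at 24 h, from 0.651 and 0.536 at 0 h (3.93 ± 0.0848). These 3 genes are also among the 20 largest rises, chosen for groups that do not overlap.

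Others of the largest rises had various known roles. Sprr1a and Sprr2f encode small proline-rich proteins of the cornified envelope, and stood at 0.658 and 0.193 FPKM at 0 h and 20.1 and 15.8 at 48 h and at 0.0735 and 0 at 0 h and 11.2 and 7.88 at 48 h, with log2 changes of 3.74 ± 0.179 and 3.33 ± 0.149. Both were near 0 at 0 h. Gprc5a, a retinoic acid-induced receptor gene, went from 0.526 and 0.416 to 13.5 and 12.1 FPKM (3.23), Akap12, a scaffold of protein kinase A, from 1.29 and 1.26 to 19.8 and 21.3 FPKM (3.24), and the ephrin receptor gene Epha2 from 1.55 and 1.35 to 24.7 and 24.4 FPKM (3.38). AA467197 went from 0.0405 and 0.0452 to 8.43 and 9.58 FPKM (3.26). The calgranulin gene S100a8, which neutrophils make in large amounts, went from 0.317 and 0.549 to 11.1 and 14.2 FPKM (3.25). All 20 of the largest rises had an adjusted p of 2.1e-09 to 5.2e-07 in limma with Benjamini-Hochberg adjustment. With a pseudocount of 0.1 in place of 1, which damps low values less, 14 of the 20 moved by more than 1.5-fold, all upward in size, Sprr2f to 6.17 and Havcr1 to 6.64. Rows of Cdkn1a, Havcr1, Atf3, Plk2, Btg2 and Phlda3 reach past their gene, that of Lcn2 also spans 1110008P14Rik, and the Havcr1 row shares bases with that of Timd2.

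The 250 bases before the start of each gene were searched for the AP-1 motif TGANTCA on both strands, in RefSeq promoters of the build GRCm38.p6, because Atf3 encodes a factor of the family that binds this motif. Of the 20 largest rises 17 had a promoter in the table and 6 of these held a match (AA467197, Cldn4, Mt2, Plaur, Sprr1a and Sprr2f). The same letters were in 9.31% of the promoters of rows higher by at least 2-fold (54 of 580), in 5.0% of those lower by at least 2-fold (61 of 1220), in 5.55% of those of all tested rows and in 7.82% of all 27025 promoters. A match is a description of these letters, not a bound site. The promoters of Plaur (chr7:24462233-24462482, + strand) and Cldn4 (chr5:134946935-134947184, − strand) are shown as examples, written 5′ to 3′ with the match in capitals.
Plaur: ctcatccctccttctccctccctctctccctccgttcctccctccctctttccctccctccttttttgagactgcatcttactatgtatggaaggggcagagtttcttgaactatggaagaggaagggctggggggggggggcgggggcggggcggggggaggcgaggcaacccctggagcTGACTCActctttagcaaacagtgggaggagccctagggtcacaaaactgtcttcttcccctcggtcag
Cldn4: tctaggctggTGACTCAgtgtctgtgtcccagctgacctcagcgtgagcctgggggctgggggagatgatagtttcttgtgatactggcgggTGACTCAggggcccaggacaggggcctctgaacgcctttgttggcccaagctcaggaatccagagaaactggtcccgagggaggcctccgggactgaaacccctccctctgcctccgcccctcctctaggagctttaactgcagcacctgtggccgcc

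**Figure D2:**
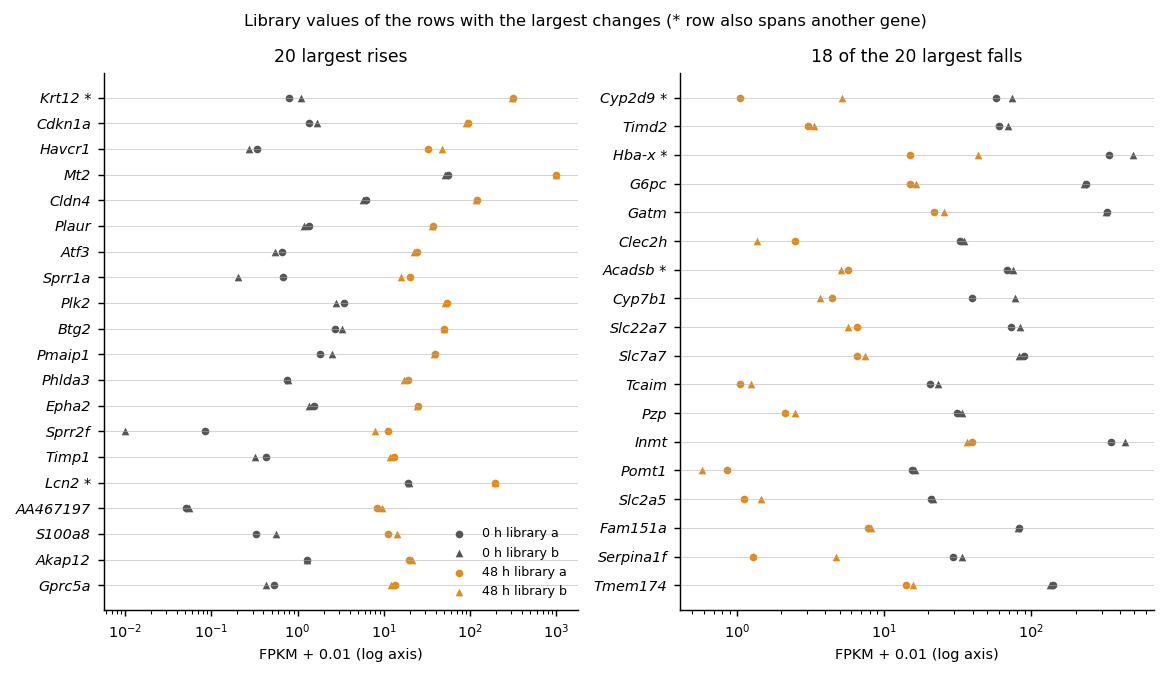
FPKM + 0.01 on a log axis for the 20 largest rises (left) and 18 of the 20 largest falls (right), with 1 point per library, grey for 0 h and orange for 48 h, circles for library a and triangles for library b. In every row shown the 48 h points lie wholly to 1 side of the 0 h points, as the choice of rows required. The spread between duplicates is widest in Cyp2d9, Hba-x and Serpina1f on the right.

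Among the largest falls, G6pc, the glucose-6-phosphatase gene that releases new glucose into the blood, stood at 234 and 227 FPKM at 0 h and 15.1 and 16.6 at 48 h (-3.78 ± 0.0687). Gatm, the first enzyme gene of creatine synthesis, stood at 324 and 323 at 0 h and 21.8 and 25.7 at 48 h (-3.72 ± 0.0963). Both fell to a small part of the 0 h level. Pck1, whose product controls the entry of precursors into glucose synthesis, went from 1132 and 1263 to 159 and 155 FPKM (-2.92 ± 0.0903). The transporter genes fell alongside: Slc22a7, an organic anion carrier, went from 72.3 and 83.8 to 6.51 and 5.69 FPKM (-3.48), Slc7a7, a basolateral carrier of cationic amino acids, from 88.9 and 82.7 to 6.57 and 7.38 FPKM (-3.45), and the fructose carrier Slc2a5 from 20.7 and 21.6 to 1.12 and 1.44 FPKM (-3.28).

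Enzyme genes of this group included Inmt, an N-methyltransferase, which went from 349.7 and 435 to 39.8 and 36.7 FPKM (-3.32) and Acadsb, a branched-chain acyl-CoA dehydrogenase, from 68.2 and 75.6 to 5.72 and 5.06 FPKM (-3.51). Other members were Tmem174, from 141 and 133 to 13.997 and 15.8 FPKM (-3.12), the mitochondrial protein gene Tcaim, from 20.5 and 23.1 to 1.04 and 1.23 FPKM (-3.41), and Pomt1, a protein O-mannosyltransferase gene, from 15.4 and 16.2 to 0.856 and 0.568 FPKM (-3.30). Fam151a (-3.21), Pzp (-3.34) and the lectin-like gene Clec2h (-3.60) were also among the largest falls. Timd2, the neighbour of Havcr1 in the same gene family, went from 60.6 and 68.9 to 3.06 and 3.35 FPKM (-3.97) while the overlapping Havcr1 row rose, and it stood at 46.2 and 42.2 FPKM at 72 h.

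The remaining falls had wider duplicates. Cyp2d9, a male-biased cytochrome P450 gene, stood at 57.9 and 73.7 FPKM at 0 h and 1.04 and 5.18 at 48 h (-4.22 ± 0.543), and moved to -3.42 without 48 h library a and to -5.02 without 48 h library b. Serpina1f stood at 29.5 and 33.8 at 0 h and 1.29 and 4.71 at 48 h (-3.17 ± 0.435; -2.51 and -3.83 without 48 h library a and b). Hba-x, a row that also spans the adult globin genes Hba-a1 and Hba-a2, stood at 337 and 489 at 0 h and 14.9 and 43.4 at 48 h (-3.94 ± 0.745; -3.20 and -4.68 without 48 h library a and b). Cyp7b1, an oxysterol hydroxylase gene, stood at 39.7 and 77.7 at 0 h and 4.45 and 3.67 at 48 h (-3.49 ± 0.459). In these 4 rows 1 duplicate differs from the other by up to severalfold. The 18 falls plotted had adjusted p of 6.6e-09 to 0.00787 in limma with Benjamini-Hochberg adjustment. Rows of Clec2h, Cyp7b1, Fam151a and Tmem174 reach past their gene, that of Cyp2d9 also spans Cyp2d12 and Tdg-ps, and that of Acadsb also spans Pstk.

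Of the 15 promoters found for the 20 largest falls, 3 held GTTAAT, the conserved core of an HNF1 binding sequence (G6pc, Pzp and Slc7a7). HNF1 factors drive genes of kidney tubule and liver. The letters GTTAAT, searched on both strands of the same 250 bases, were in 8.28% of promoters of rows lower by at least 2-fold (101 of 1220), in 4.14% of rows higher by at least 2-fold (24 of 580), in 5.35% of all tested rows and in 7.49% of all promoters. The G6pc promoter (chr11:101367466-101367715, + strand, RefSeq GRCm38.p6) is shown with the match in capitals.
G6pc: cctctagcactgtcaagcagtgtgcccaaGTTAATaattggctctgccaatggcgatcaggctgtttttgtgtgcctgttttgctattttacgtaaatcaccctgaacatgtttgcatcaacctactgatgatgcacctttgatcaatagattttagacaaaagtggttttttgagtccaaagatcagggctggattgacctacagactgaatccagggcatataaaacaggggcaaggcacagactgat

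**Figure D3:**
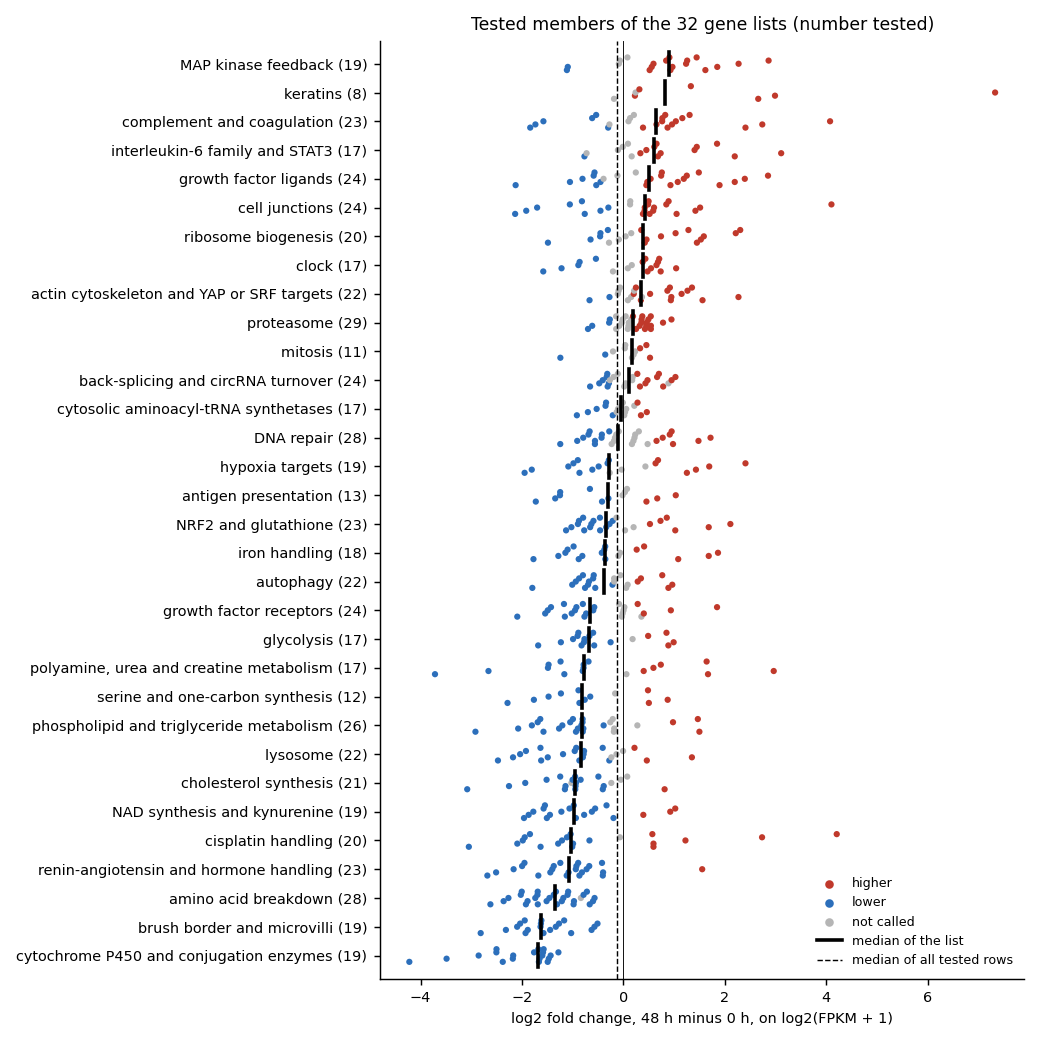
Log2 fold changes of the tested members of 32 gene lists, 1 point per gene, with the number tested beside each list name; a gene can stand in more than 1 list. Red points were called higher, blue points lower and grey points were not called, the black bars are list medians, and the dashed line is the median of all tested rows at -0.13; cytochrome P450 genes and brush border genes lie wholly on the lower side, and MAP kinase feedback genes and keratins have the highest medians.

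Of 634 tested members of the 32 pathway lists, 195 rose and 324 fell, beside 28.5% and 42.1% of all rows. The most uniform group was that of cytochrome P450 and conjugation enzymes, which oxidise and couple drugs, steroids and fatty acids: all 19 tested members fell by at least 2-fold (median -1.55 relative to all rows). Cyp2a4, a steroid hydroxylase gene, stood at 65.5 and 63.1 FPKM at 0 h and 8.32 and 7.74 at 48 h (-2.86 ± 0.0747), and Cyp4a12a, which makes the vasoactive lipid 20-HETE, at 15.004 and 24.1 at 0 h and 2.47 and 2.58 at 48 h (-2.51 ± 0.191). Neither gene has overlapping groups, and the 0 h duplicates of Cyp4a12a are unequal. Near-identical copies of these families share reads, so values of single members are uncertain. Genes of amino acid breakdown fell almost as uniformly, with 27 of 28 members lower, 0 higher and 20 of them by at least 2-fold (median -1.23). Gldc, of the glycine cleavage system, stood at 51.7 and 64.4 FPKM at 0 h and 7.86 and 9.25 at 48 h (-2.62 ± 0.112), and Sardh, which demethylates sarcosine, at 199.7 and 178 at 0 h and 37.8 and 34.04 at 48 h (-2.36 ± 0.108). For tyrosine, Fah went from 189 and 207 to 41.2 and 39.3 FPKM (-2.27) and Hpd from 14.5 and 14.4 to 3.102 and 2.52 FPKM (-2.02). In all of these both 48 h libraries lay below both 0 h libraries, and 86.4% of all tested rows likewise had groups without overlap.

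Genes of one-carbon metabolism fell more often than they rose. Of 12 members 8 fell and 3 rose (median -0.69). Shmt2, the mitochondrial serine hydroxymethyltransferase gene, went from 75.4 and 81.6 to 15.4 and 15.2 FPKM (-2.29) and Aldh1l1, which consumes formyl folate, from 181 and 177 to 54.9 and 49.1 FPKM (-1.77). Asns, the asparagine synthetase gene, rose from 1.85 and 1.86 to 3.91 and 4.58 FPKM (0.87), as did Mthfd1l from 0.974 and 0.903 to 1.82 and 1.67 FPKM (0.50). In the urea, polyamine and creatine list 10 of 17 fell and 6 rose (median -0.66). For arginine, Ass1, which makes the precursor of arginine in this segment, stood at 1233 and 1204 FPKM at 0 h and 191 and 193 at 48 h (-2.66 ± 0.0784), whereas Arg2, the mitochondrial arginase gene, stood at 1.69 and 1.86 at 0 h and 20.97 and 20.4 at 48 h (2.96 ± 0.0727). Ass1 is low and Arg2 high in both 48 h libraries. Smox, the spermine oxidase gene, rose from 2.24 and 1.93 to 9.06 and 8.53 FPKM (1.67), and Nos3, the endothelial nitric oxide synthase gene, from 0.805 and 0.734 to 4.77 and 4.28 FPKM (1.64). Odc1, the first enzyme gene of polyamine synthesis, fell from 509.5 and 546 to 185 and 189 FPKM (-1.49). Rows of Fah, Hpd, Aldh1l1, Arg2 and Smox reach past their gene, and that of Cyp4a12a also spans Cyp4a12b.

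Glycolysis genes fell more often than they rose, 12 against 4 of 17 (median -0.54), and the isoenzymes did not move alike. Ldha, a subunit of lactate dehydrogenase, went from 346 and 339 to 145 and 145 FPKM (-1.23), Eno1 from 308 and 285 to 132 and 166 FPKM (-0.99) and Pfkm, a phosphofructokinase gene, from 14.4 and 14.1 to 4.15 and 3.37 FPKM (-1.68). Hk1 fell from 21.01 and 17.9 to 12.96 and 11.99 FPKM (-0.60) while Hk2, the inducible hexokinase gene, rose from 0.141 and 0.115 to 1.14 and 1.03 FPKM (0.89). Pkm, the pyruvate kinase gene, rose from 75.1 and 66.4 to 103 and 95.8 FPKM (0.49), Pfkfb3, whose product stimulates phosphofructokinase, from 3.07 and 2.85 to 6.46 and 7.295 FPKM (0.99), and the lactate exporter gene Slc16a3 from 0.34001 and 0.371 to 1.69 and 1.21 FPKM (0.85). Hk2 and Slc16a3 were low in FPKM at 48 h next to Ldha or Eno1.

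Genes of lipid synthesis were lower at several steps. Of 21 cholesterol synthesis genes 16 fell and 1 rose, Msmo1, from 10.6 and 11.7 to 18.9 and 21.7 FPKM (0.81; median of the list -0.82). Cyp51 went from 106 and 117 to 22.3 and 22.6 FPKM (-2.26), Ebp from 65.7 and 65.1 to 16.3 and 16.3 FPKM (-1.94) and Hmgcs1 from 150.1 and 174 to 55.6 and 56.1 FPKM (-1.52). Srebf2, the transcription factor gene that drives the pathway, fell from 17.5 and 17.1 to 8.01 and 8.96 FPKM (-0.95). In the phospholipid and triglyceride list 18 of 26 fell and 3 rose (median -0.69). Dgat2 and Gpam, which build triglyceride, went from 69.2 and 70.4 to 15.5 and 16.2 FPKM (-2.08) and from 40.4 and 42.3 to 10.96 and 13.4 FPKM (-1.69). Plin2, which coats stored lipid droplets, rose from 46.04 and 48.3 to 137 and 133 FPKM (1.50) and the fatty acid carrier gene Fabp4 from 18.8 and 20.5 to 53.3 and 59.02 FPKM (1.47). The synthesis genes and the droplet gene thus stood on opposite sides of the 0 h libraries.

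Of 19 genes of NAD synthesis, NAD use and the kynurenine route, 16 fell and 3 rose (median -0.85). Along the kynurenine route, Kmo went from 41.2 and 43.1 to 13.7 and 13.3 FPKM (-1.57), Kynu from 3.98 and 3.08 to 1.395 and 0.939 FPKM (-1.06), Haao from 71.7 and 74.3 to 19.7 and 16.4 FPKM (-1.96) and Qprt, which commits the route to NAD, from 24.7 and 24.7 to 6.42 and 6.57 FPKM (-1.78). Nnt, whose mitochondrial enzyme makes NADPH from NADH, went from 49.6 and 50.1 to 12.4 and 13.5 FPKM (-1.87). Among consumers of NAD, the deacetylase gene Sirt1 rose from 6.505 and 7.46 to 15.4 and 15.003 FPKM (1.02) and Cd38 from 2.83 and 2.32 to 5.82 and 5.72 FPKM (0.92). Ppargc1a, a coactivator gene of mitochondrial biogenesis, fell from 9.92 and 9.57 to 4.66 and 5.96 FPKM (-0.77). No gene named here had overlapping groups, nor had 86.4% of all tested rows. In the glycolysis, lipid and NAD lists, Hk2, Pkm, Cyp51, Dgat2, Plin2, Fabp4, Kmo, Haao, Qprt, Nnt, Sirt1 and Ppargc1a have rows that reach past the gene.

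Genes of surface structure and of hormone handling in the tubule fell as groups. All 19 tested brush border genes fell, 16 by at least 2-fold (median -1.49). Mep1b, a subunit of the meprin protease of the brush border, stood at 84.9 and 93.98 FPKM at 0 h and 12.4 and 11.3 at 48 h (-2.82 ± 0.0918), and the proline-specific peptidase gene Xpnpep2 at 6.98 and 6.17 at 0 h and 0.439 and 0.598 at 48 h (-2.32 ± 0.123). Duplicates at 48 h were close and far below 0 h. Pdzk1, the scaffold that holds transporters in the membrane, went from 209 and 203 to 49.5 and 45.2 FPKM (-2.10), and Dpep1, a dipeptidase gene, from 67.5 and 63.4 to 15.1 and 15.2 FPKM (-2.04). Cubn, which encodes the endocytic receptor cubilin, went from 264 and 285 to 53.6 and 52.4 FPKM (-2.35), the glucose carrier gene Slc5a2 from 66.9 and 57.2 to 15.8 and 19.1 FPKM (-1.77), the monocarboxylate carrier gene Slc5a12 from 91.8 and 98.7 to 14.05 and 16.1 FPKM (-2.58) and Miox, the inositol oxygenase gene, from 969 and 994 to 439 and 452 FPKM (-1.14). At 72 h Mep1b read 2.77 and 2.32 FPKM and Miox 93.3 and 90.6, below all 48 h libraries.

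Among 23 genes that make, sense or clear hormones 22 fell and 1 rose (median -0.96). Pth1r, the parathyroid hormone receptor gene, stood at 211 and 205 FPKM at 0 h and 31.001 and 32.03 at 48 h (-2.68 ± 0.0691), and Kl, which encodes the phosphate-regulating coreceptor Klotho, at 189.9 and 199 at 0 h and 33.6 and 32.9 at 48 h (-2.51 ± 0.0815). Ace, the angiotensin-converting enzyme gene, went from 42.4 and 46.6 to 8.98 and 9.27 FPKM (-2.17), and the angiotensin receptor gene Agtr1a from 25.1 and 27.98 to 4.72 and 7.27 FPKM. Cyp27b1, which activates vitamin D, fell from 8.88 and 9.04 to 5.28 and 4.77 FPKM (-0.73). The single rise was in the renin gene Ren1, which juxtaglomerular cells make, at 16.7 and 13.5 FPKM at 0 h and 47.5 and 44.6 at 48 h (1.55 ± 0.117). Its 48 h duplicates agree closely, and 24 h already read 48.7 and 39.9 FPKM.

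Lysosomal genes fell in 16 of 22 and rose in 3 (median -0.71). The glycosidase genes led: the sialidase gene Neu1 stood at 100.2 and 104 FPKM at 0 h and 17.7 and 17.4 at 48 h (-2.47 ± 0.0903), Glb1, which encodes beta-galactosidase, at 97.5 and 107 at 0 h and 20.7 and 22.9 at 48 h (-2.18 ± 0.0769), and Gaa, which breaks down glycogen in the lysosome, at 25.8 and 25.4 at 0 h and 5.31 and 5.67 at 48 h (-2.04 ± 0.0791). Lamp1, a membrane glycoprotein gene, fell from 438 and 472 to 267 and 254 FPKM (-0.80). Against them, the galactosidase gene Gla rose from 2.06 and 2.72 to 7.68 and 7.52 FPKM (1.35) and the protease gene Ctsd from 340.4 and 353 to 483 and 473 FPKM (0.46). Of 22 autophagy genes 12 fell and 5 rose (median -0.26), a balance that evened out with scaling, at 7 rises and 11 falls once library medians were equalised and 9 and 9 by quantile normalisation. Gabarapl1, of the family that coats autophagosomes, went from 294 and 296 to 85.4 and 82.9 FPKM (-1.80) and Tfeb, the factor gene that drives lysosomal genes, from 7.11 and 6.57 to 2.75 and 3.04 FPKM (-1.01). Atg14 rose from 4.33 and 3.72 to 9.03 and 8.54 FPKM (0.96) and Rb1cc1, of the kinase complex that starts autophagy, from 11.7 and 11.5 to 22.5 and 22.1 FPKM (0.89). In the brush border, hormone, lysosome and autophagy lists, Pdzk1, Slc5a12, Kl and Ctsd have rows that reach past the gene, and the row of Cyp27b1 also spans Mettl1, Glb1 also spans Tmppe and Rb1cc1 also spans Cops5, Rrs1 and Tcf24.

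Junction genes changed in kind. Of 24 members 14 rose and 8 fell (median 0.55). Cldn2 and Cldn10, the claudins that give the proximal tubule its leakiness to cations and anions, stood at 26.6 and 30.1 FPKM at 0 h and 6.07 and 7.52 at 48 h (-1.92 ± 0.1199) and at 236 and 237 at 0 h and 56.8 and 49.6 at 48 h (-2.14 ± 0.0734). Both are low in both 48 h libraries, where Cldn4, a claudin of tighter distal epithelium, is high. Kidney cadherin, Cdh16, went from 669 and 629 to 207 and 191 FPKM (-1.70) and N-cadherin, Cdh2, from 1.98 and 2.14 to 0.387 and 0.557 FPKM (-1.06), while the scaffold gene Tjp1 rose from 8.54 and 9.697 to 17.1 and 18.3 FPKM (0.89). Of 8 keratins 6 rose and 0 fell (median 0.95). Krt18 stood at 4.45 and 4.16 FPKM at 0 h and 44.5 and 37.98 at 48 h (2.99 ± 0.0872) and Krt19 at 1.12 and 0.608 at 0 h and 12.2 and 9.33 at 48 h (2.66 ± 0.1501), and the groups are far apart in both. Krt23 rose from 0.304 and 0.3897 to 2.79 and 2.02 FPKM (1.33).

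Of 22 actin genes and targets of the mechanical regulators YAP and SRF, 13 rose and 2 fell (median 0.48). Ccn1, a matrix signalling protein and YAP target, stood at 6.49 and 6.01 FPKM at 0 h and 34.5 and 33.3 at 48 h (2.27 ± 0.0699), and Ankrd1, another YAP target, at 0.271 and 0.167 at 0 h and 2.45 and 1.8004 at 48 h (1.35 ± 0.124). Tubb6, a tubulin gene, went from 10.5 and 10.4 to 33.95 and 31.8 FPKM (1.56), and the actin cross-linker gene Flna from 15.4 and 16.03 to 36.8 and 41.7 FPKM (1.26). Myl9, of the myosin light chains, fell from 10.9 and 9.86 to 6.43 and 5.88 FPKM (-0.67). Ankrd1 was higher at 24 h, with 4.405 and 3.89 FPKM, and Flna read 88.4 and 92.2 at 72 h. In the junction and cytoskeleton lists, Cldn2 has a row that reaches past the gene, and the row of Tubb6 also spans Impa2.

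Signalling genes differed in balance by role, with ligands and feedback inhibitors more often higher and receptors more often lower. Of 24 growth factor ligands 14 rose and 7 fell (median 0.63). There were 15 rises and 6 falls once library medians were equalised and 12 and 8 by quantile normalisation. Gdf15, a stress-induced member of the TGF-beta superfamily, stood at 1.304 and 1.69 FPKM at 0 h and 17.3 and 16.6 at 48 h (2.85 ± 0.123), and Hbegf, a ligand of the epidermal growth factor receptor, at 8.59 and 8.79 at 0 h and 51.4 and 48.4 at 48 h (2.39 ± 0.0759). Both are high in both 48 h libraries, Hbegf less so than at 24 h (80.1 and 85.3 FPKM). Tgfb1, the main fibrogenic cytokine gene, rose from 1.22 and 1.94 to 4.1003 and 3.63 FPKM (0.93). Pdgfc fell from 8.13 and 8.08 to 1.21 and 0.969 FPKM (-2.13), and Bmp7, which protects the tubule in development and repair, from 8.62 and 5.65 to 2.78 and 2.92 FPKM (-1.05). Of 24 receptors 14 fell and 4 rose (median -0.54): Fgfr4 went from 7.94 and 8.79 to 1.28 and 1.11 FPKM (-2.09), the insulin-like growth factor receptor gene Igf1r from 35.6 and 39.8 to 11.7 and 12.9 FPKM (-1.54), Erbb2 from 12.7 and 12.8 to 4.13 and 3.64 FPKM (-1.49) and Egfr, the receptor for Hbegf, from 45.2 and 45.8 to 26.7 and 27.2 FPKM (-0.74). Pdgfra, which marks fibroblasts, rose from 2.94 and 3.19 to 6.79 and 6.74 FPKM (0.94).

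Genes that MAP kinase signalling induces and that then damp it rose in 14 of 19 and fell in 2 (median 1.03). The phosphatase gene Dusp5 stood at 0.491 and 0.454 FPKM at 0 h and 9.72 and 9.704 at 48 h (2.86 ± 0.0855), Phlda1 at 0.717 and 0.534 at 0 h and 7.36 and 6.34 at 48 h (2.27 ± 0.127), Dusp4 at 4.04 and 3.66 at 0 h and 17.3 and 15.7 at 48 h (1.85 ± 0.0822) and Dusp8 at 0.257 and 0.274 at 0 h and 3.06 and 2.71 at 48 h (1.62 ± 0.102). All 4 were low at 0 h. The falls were in Errfi1, which inhibits the epidermal growth factor receptor, from 163 and 149 to 70.2 and 72.5 FPKM (-1.11), and Etv5, from 3.92 and 3.61 to 1.24 and 1.21 FPKM (-1.10). In the interleukin-6 family 11 of 17 rose and 1 fell (median 0.74). Among ligands, Lif stood at 0.03803 and 0.0576 FPKM at 0 h and 3.54 and 4.07 at 48 h (2.20 ± 0.105) and Il6 at 0 and 0.0216 at 0 h and 1.71 and 1.64 at 48 h (1.40 ± 0.101). Osmr, a receptor gene, went from 2.88 and 3.72 to 15.1 and 13.7 FPKM (1.85), while Lifr fell from 20.3 and 20.2 to 10.4 and 12.6 FPKM (-0.77). Downstream, Stat3 rose from 13.6 and 14.9 to 19.7 and 25.2 FPKM (0.61), its feedback inhibitor gene Socs3 from 0.5797 and 0.429 to 12.3 and 11.6 FPKM (3.11) and the kinase gene Pim1 from 2.599 and 2.59 to 9.23 and 8.38 FPKM (1.45). In the signalling lists, Gdf15, Tgfb1 and Dusp4 have rows that reach past the gene, and the row of Egfr also spans Ppp3r1.

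Of 23 complement and clotting genes 13 rose and 6 fell (median 0.78). Plat, which encodes the tissue plasminogen activator, stood at 10.9 and 9.91 FPKM at 0 h and 74.7 and 75.2 at 48 h (2.74 ± 0.0671). Its groups are far apart, and at 72 h it read 203 and 215 FPKM. The tissue factor gene F3 rose from 4.93 and 4.33 to 8.59 and 8.496 FPKM (0.76) and the central complement gene C3 from 2.701 and 3.93 to 6.22 and 6.92 FPKM (0.82). Proc, the anticoagulant protein C gene, fell from 39.7 and 40.5 to 9.94 and 11.1 FPKM (-1.84), and C4b from 2.65 and 4.398 to 0.448 and 0.528 FPKM (-1.58). Antigen presentation genes fell in 7 of 13 and rose in 3 (median -0.17), and the falls included class II genes: H2-Ab1, H2-Aa, H2-Eb1 and Cd74 changed by -1.73, -1.25, -1.25 and -1.35. H2-Ab1 went from 68.99 and 57.1 to 20.6 and 16.2 FPKM and Cd74, the invariant chain gene, from 95.6 and 82.7 to 35.5 and 33.3 FPKM. Tap1, the peptide transporter of class I, rose from 4.498 and 4.53 to 10.05 and 10.5 FPKM (1.03), and Psme2, a proteasome activator subunit, from 60.6 and 61.7 to 97.9 and 97.5 FPKM (0.67). Overlap of rows in the H2 region leaves single values of H2-Ab1, H2-Aa, H2-Eb1, C4b and Tap1 uncertain. In these immune lists, Plat and C4b have rows that reach past the gene.

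Among genes that carry, bind or conjugate cisplatin 13 of 20 fell and 6 rose (median -0.90). On the uptake side, the organic cation transporter gene Slc22a2 stood at 114 and 116 FPKM at 0 h and 29.2 and 27.4 at 48 h (-1.99 ± 0.0704) and the copper transporter gene Slc31a1 at 74.2 and 76.7 at 0 h and 29.9 and 30.8 at 48 h (-1.29 ± 0.108). Lrrc8d, a subunit of the volume-regulated anion channel through which cisplatin can pass, stood at 10.9 and 11.7 at 0 h and 0.512 and 0.461 at 48 h (-3.05 ± 0.109), and Lrrc8a, the obligate subunit, at 48.4 and 50.7 at 0 h and 25.98 and 22.9 at 48 h (-0.99 ± 0.0859). All 4 are low in both 48 h libraries, Lrrc8d the most by fold. Ggt1, which starts the conversion of glutathione conjugates into toxic thiols, went from 578 and 620.03 to 159 and 150.2 FPKM (-1.95). Of the export pumps, Abcc2 went from 111 and 119.9 to 55.3 and 58.2 FPKM (-1.01) and Abcc4 from 13.9 and 15.1 to 6.31 and 6.74 FPKM (-1.04), while Abcb1b rose from 3.96 and 4.18 to 10.9 and 10.7 FPKM (1.22).

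The metallothioneins, small cysteine-rich proteins that bind zinc, copper and platinum, rose most in this list. Mt2 stood at 55.8 and 50.9 FPKM at 0 h and 1006 and 998 at 48 h (4.21 ± 0.117) and Mt1 at 26.8 and 26.8 at 0 h and 178 and 189.6 at 48 h (2.73 ± 0.0793). Their duplicates are close, and both genes read higher at 72 h, with 2472 and 2423 FPKM for Mt2 and 428 and 489.6 for Mt1. Promoters of these genes carry metal response elements, whose core was searched as TGCACNC or TGCGCNC on both strands of the 250 bases upstream. The Mt2 promoter held 3 matches and the Mt1 promoter 1. Such a core was in 28.8% of promoters of rows higher by at least 2-fold (167 of 580), in 36.1% of rows lower by at least 2-fold (441 of 1220), in 34.2% of all tested rows and in 23.8% of all promoters. Both promoters lie on the + strand of chromosome 8, Mt2 at chr8:94172368-94172617 and Mt1 at chr8:94178839-94179088 (RefSeq GRCm38.p6), with the cores in capitals.
Mt2: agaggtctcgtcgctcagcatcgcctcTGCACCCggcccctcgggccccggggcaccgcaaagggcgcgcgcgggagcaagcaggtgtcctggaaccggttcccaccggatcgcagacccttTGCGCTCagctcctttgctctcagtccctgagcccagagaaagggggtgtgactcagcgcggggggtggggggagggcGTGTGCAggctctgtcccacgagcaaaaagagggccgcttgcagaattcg
Mt1: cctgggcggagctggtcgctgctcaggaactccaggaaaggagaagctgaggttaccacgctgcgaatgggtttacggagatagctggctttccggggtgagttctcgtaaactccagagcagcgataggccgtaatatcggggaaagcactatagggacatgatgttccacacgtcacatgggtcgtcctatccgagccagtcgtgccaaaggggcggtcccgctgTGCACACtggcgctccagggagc

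Genes of the oxidant response moved both ways. The list fell in 14 of 23 and rose in 6 (median -0.21), but the balance depended on scaling, at 8 rises and 11 falls once library medians were equalised and 11 and 6 by quantile normalisation. Several inducible targets of the oxidant-responsive factor NRF2 rose: Srxn1, which repairs peroxiredoxins, stood at 18.9 and 19.1 FPKM at 0 h and 85.4 and 85.1 at 48 h (2.11 ± 0.0605), Hmox1, which breaks down heme, at 11.8 and 12.6 at 0 h and 40.1 and 42.6 at 48 h (1.68 ± 0.0731) and the thioredoxin reductase gene Txnrd1 at 39.5 and 38.7 at 0 h and 81.5 and 79.4 at 48 h (1.02 ± 0.0575). Slc7a11, the cystine importer gene, went from 0.0178 and 0.0401 to 0.874 and 0.556 FPKM (0.73). The abundant peroxidase gene Gpx1 fell from 1503 and 1519 to 721 and 763 FPKM (-1.03), and Gss, the last enzyme gene of glutathione synthesis, from 141 and 138 to 62.8 and 63.2 FPKM (-1.13; -0.52 after quantile normalisation). Hypoxia targets fell in 10 of 19 and rose in 6 (median -0.16), with 6 rises and 8 falls once library medians were equalised and 7 and 7 by quantile normalisation. Ndrg1 fell from 825 and 929 to 219.97 and 232 FPKM (-1.95), whereas Ddit4, an inhibitor of mTOR, rose from 8.07 and 12.2 to 35.6 and 33.2 FPKM (1.69), Edn1, the endothelin gene, from 0.296 and 0.344 to 2.42 and 2.701 FPKM (1.43) and Adm, the adrenomedullin gene, from 5.33 and 4.695 to 13.8 and 12.8 FPKM (1.25). Iron genes fell in 11 of 18 and rose in 5 (median -0.24), or 5 rises and 10 falls once library medians were equalised and 7 and 7 by quantile normalisation. The ferroxidase gene Cp rose from 4.67 and 5.75 to 21.8 and 21.3 FPKM (1.87), the heme exporter gene Flvcr1 from 3.26 and 3.71 to 8.89 and 8.07 FPKM (1.08) and the ferritin heavy chain gene Fth1 from 1633 and 1669.9 to 1919.5 and 2041 FPKM (0.26), while the iron sensor gene Aco1 fell from 152 and 164 to 47.2 and 43.9 FPKM (-1.77) and the metal importer gene Slc39a8 from 10.1 and 14.4 to 4.35 and 4.38 FPKM (-1.28). Among the genes of cisplatin, oxidant, hypoxia and iron handling, Slc31a1, Ggt1, Abcc2, Abcb1b, Srxn1, Hmox1, Slc7a11, Gss, Ddit4, Adm and Flvcr1 have rows that reach past the gene, and the row of Lrrc8d also spans Gm42166, Lrrc8a also spans Nup188 and Phyhd1 and Txnrd1 also spans Eid3.

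Of 20 ribosome biogenesis genes 11 rose and 5 fell (median 0.51). The nucleolar genes Gnl3 and Nop58 stood at 4.399 and 3.62 FPKM at 0 h and 22.998 and 24.3 at 48 h (2.30 ± 0.0959) and at 4.29 and 4.54 at 0 h and 24.4 and 23.9 at 48 h (2.22 ± 0.07996), and Myc, which drives the programme, at 1.25 and 0.974 at 0 h and 5.08 and 5.06 at 48 h (1.53 ± 0.0959). Duplicates at 48 h are several times above 0 h in each. Nop56 rose from 7.36 and 7.52 to 24.4 and 24.3 FPKM (1.59), whereas Polr1b, a subunit of RNA polymerase I, fell from 6.73 and 6.43 to 3.69 and 3.98 FPKM (-0.65). Proteasome genes rose in 15 of 29 and fell in 4, none by 2-fold (median 0.32), with 19 rises and 2 falls once library medians were equalised and 26 and 1 by quantile normalisation. The ATPase genes Psmc1 and Psmc6 went from 36.3 and 34.1 to 68.4 and 69.2 FPKM (0.95) and from 37.03 and 38.7 to 65.2 and 66.3 FPKM (0.78), and Psmd3 fell from 47.2 and 46.2 to 28.96 and 27.8 FPKM (-0.70). Cytosolic tRNA synthetases rose in 3 of 17 and fell in 6 (median 0.09, above that of all rows although more members fell), a balance that turned with scaling, at 4 rises and 4 falls once library medians were equalised and 7 and 3 by quantile normalisation. Farsb fell from 48.4 and 47.98 to 27.2 and 23.003 FPKM (-0.92) and Eprs from 21.1 and 23.2 to 14.2 and 12.3 FPKM (-0.70).

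DNA repair genes as a list stood near the median of all rows. Of 28 members 10 fell and 7 rose (median 0.01), and the balance turned with scaling, at 13 rises and 9 falls once library medians were equalised and 11 and 10 by quantile normalisation. Among the rises, Polk, a polymerase gene that copies past damage, stood at 2.53 and 3.04 FPKM at 0 h and 12.1 and 10.7 at 48 h (1.72 ± 0.123), and Ercc1, of the nuclease that cuts out cross-links, at 5.702 and 5.36 at 0 h and 17.6 and 16.8 at 48 h (1.48 ± 0.0829). Both 48 h libraries are high in each, and Ercc1 read 42.5 and 40.2 FPKM at 72 h. Rev1 rose from 3.47 and 3.58 to 7.62 and 7.88 FPKM (0.95), Ercc5, another excision nuclease gene, from 5.68 and 5.31 to 10.6 and 11.9 FPKM (0.91) and the mismatch repair gene Msh6 from 4.17 and 4.705 to 9.89 and 9.502 FPKM (0.98). Parp1, which senses strand breaks, fell from 10.4 and 10.2 to 3.66 and 3.87 FPKM (-1.25) and the damage recognition gene Xpc from 8.24 and 7.64 to 5.397 and 5.92 FPKM (-0.43). Polh, a polymerase gene whose product can copy past platinum adducts, stood at 2.53 and 2.58 FPKM at 0 h and 2.07 and 2.27 at 48 h (-0.17). Ddb2 stood at 1.27 and 1.37 at 0 h and 1.205 and 1.15 at 48 h (-0.09), and neither gene was called. Mitosis genes had 11 of 22 members tested, 3 higher and 2 lower (median 0.30), or 3 rises and 1 falls once library medians were equalised and 0 and 2 by quantile normalisation. Top2a stood at 0.328 and 0.174 FPKM at 0 h and 0.803 and 0.789 at 48 h (0.52 ± 0.104; 0.26 and not called after quantile normalisation), and Cdk1 at 0.623 and 1.13 at 0 h and 1.21 and 1.15 at 48 h, which was not called (0.23) except without 0 h library b (0.43). At 72 h Top2a read 2.52 and 2.23 FPKM and Cdk1 4.398 and 3.85. The falls were in Birc5, an inhibitor of apoptosis that also acts at division, at 60.8 and 62.9 FPKM at 0 h and 26.98 and 24.2 at 48 h (-1.24 ± 0.07797), and in Ccna2, the cyclin A2 gene, at 5.18 and 5.58 at 0 h and 4.68 and 3.35 at 48 h (-0.36), whose call was lost without 0 h library a (-0.40), 0 h library b (-0.31) or 48 h library b (-0.17) and under both other scalings. The summed level of the list went from 71.7 and 76.1 FPKM at 0 h to 40.5 and 36.99 at 48 h, most of it in the Birc5 row. That row also spans Afmid and Syngr2, so its fall and that of the sum cannot be assigned to Birc5 alone.

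Factors that promote or limit back-splicing rose in 9 of 24 and fell in 7 (median 0.24), with 11 rises and 3 falls once library medians were equalised and 13 and 1 by quantile normalisation. The splicing protein genes Hnrnpa1, Srsf6 and Sf3b1 went from 17.8 and 17.7 to 36.1 and 34.3 FPKM (0.95), from 18.2 and 17.95 to 32.4 and 31.3 FPKM (0.78) and from 36.3 and 35.97 to 56.1 and 62.8 FPKM (0.70). Each rise was larger than the spread between duplicates. The epithelial splicing regulator gene Esrp2 fell from 9.47 and 9.302 to 5.94 and 5.25 FPKM (-0.66) and G3bp1, of stress granules, from 31.9 and 31.95 to 22.7 and 22.6 FPKM (-0.48; -0.14 and not called after quantile normalisation). Of 17 clock genes 9 rose and 5 fell (median 0.51). Arntl, the core activator BMAL1, fell from 6.77 and 6.87 to 2.96 and 3.51 FPKM (-0.89) and Npas2 from 1.85 and 1.605 to 0.811 and 0.934 FPKM (-0.54), while the repressor genes Ciart and Per1 rose from 0.836 and 0.279 to 2.23 and 2.07 FPKM (1.04) and from 7.76 and 8.25 to 13.9 and 14.1 FPKM (0.73). The output regulators Hlf and Tef changed by -1.58 and -1.22. The labels do not give the hour of the day at which each group was taken, so time of day and treatment cannot be told apart for these genes. In the lists from ribosome biogenesis to the clock, Nop58, Farsb, Polk, Rev1, Xpc, Ddb2, Ccna2, Esrp2, G3bp1 and Hlf have rows that reach past the gene, and the row of Ercc5 also spans Bivm, Birc5 also spans Afmid and Syngr2, Per1 also spans Vamp2 and Tef also spans 11 other genes.

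Markers of the other cell types of a cortical isolate were summed per library, in FPKM. Tubule segments beyond the proximal tubule mostly fell: thick ascending limb markers went from 275 and 277 to 101 and 99.2 (5 of 5 tested lower), distal convoluted tubule markers from 551 and 539.7 to 112 and 114 (6 of 6) and intercalated cell markers from 70.9 and 73.3 to 24.5 and 28.8 (5 of 7). Principal cell markers of the collecting duct went from 157 and 139 to 157 and 144, and the sums of the groups overlapped, while 5 of 7 tested members fell and 2 rose, among them the water channel gene Aqp2, from 37.2 and 29.2 to 62.4 and 55.8 FPKM (0.82). Podocyte markers went from 54.05 and 49.1 to 72.4 and 68.2 (5 of 7 higher, 1 lower). Fibroblast and pericyte markers went from 64.5 and 59.9 to 148 and 145 (6 of 8 higher) and endothelial markers from 87.9 and 84.7 to 108 and 94.5 (3 higher and 2 lower of 9).

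Among blood cells, neutrophil markers went from 1.08 and 1.31 to 27.2 and 32.8 FPKM, all 7 tested members higher (4 after quantile normalisation), with the defining marker Ly6g listed at 0 in both 0 h libraries. Macrophage and monocyte markers went from 41.2 and 35.6 to 49.2 and 47.4 (3 higher, 1 lower of 7). T and NK cell markers summed to 3.71 and 3.04 at 0 h and 2.36 and 1.97 at 48 h, and of 6 B cell markers all but Cd79a stayed under 1 FPKM in every 0 h and 48 h library; the Cd79a row also spans other genes and overlaps Plaur. Red cell markers went from 380.1 and 388 to 72.2 and 66.5, all 3 tested members lower. These levels moved with the gene groups above, S100a8 and the interleukin and matrix genes with neutrophil and fibroblast markers, the globin row with red cell markers, Ren1 with markers of non-tubule cells and the class II genes against macrophage markers. S100a8 is itself 1 of the neutrophil markers, so its own level is part of their sum. The part of these cell types in those results was not tested.

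Circular RNAs form when a splice donor joins an upstream acceptor, which closes the exons between into a ring that has no free ends and outlasts most linear messages. They were counted as reads over back-splice junctions, 13603 and 18171 in the 0 h libraries and 21024 and 17048 at 48 h. Of 2163 circRNAs 1574 were tested, with a median of 4.25 counts a library over the 4 libraries. edgeR's quasi-likelihood test with Benjamini-Hochberg adjustment called 20 (1.27%), 13 higher (0.826%) and 7 lower (0.445%), and 601 (38.2%) had groups with no overlap. At an unadjusted p under 0.05 there were 133. The count of rises was 8, 5 and 7 without 0 h library a, 0 h library b or 48 h library a and 7 with DESeq2, and the count of falls was 4 without 48 h library a. Of the 20, 15 lay inside exactly 1 protein-coding gene, from 14 genes. Build mm10 is used for their positions.

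The rises with the most counts separated by group in every library. The circRNA of Tulp4, a tubby-like protein gene (chr17:6137211-6139156), had 33 and 42 counts at 0 h and 202 and 177 at 48 h, a log2 change of 1.99 ± 0.216, and that of the kinase gene Stk39 (chr2:68390914-68410141), whose product regulates salt transport, had 28 and 50 counts at 0 h and 147 and 148 at 48 h (1.59 ± 0.227). A circRNA of Arhgap5, a GTPase-activating protein gene (chr12:52516079-52519967), had 20 and 25 counts at 0 h and 116 and 107 at 48 h (1.96 ± 0.267). In all 3 each 48 h library held more counts than either 0 h library. A longer Arhgap5 circRNA that shares its start with the first (chr12:52516079-52542636) went from 2 and 7 to 26 and 26 counts (2.18 ± 0.558), and at 72 h the shorter form read 12 and 18 counts. The circRNA of Strn3, a striatin scaffold gene, went from 5 and 4 to 39 and 35 counts (2.66 ± 0.501) and that of Smad4, the shared transducer of TGF-beta signals, from 8 and 11 to 55 and 33 counts (1.84 ± 0.414). Those of the cohesin release gene Wapl, of the kinase gene Rps6kb1 and of Scaper went from 8 and 4 to 39 and 16 counts, from 2 and 15 to 40 and 24 counts and from 14 and 18 to 61 and 45 counts. A circRNA on chromosome 8 inside no annotated gene went from 6 and 5 to 32 and 25 counts. The adjusted p of these 10 ranged from 2.0e-17 to 0.0459 in edgeR's quasi-likelihood test with Benjamini-Hochberg adjustment. Leaving out 1 of the 4 libraries lost the call for 6 of them in 1 or more cases (the longer Arhgap5 form, Smad4, Wapl, Rps6kb1, Scaper and the chromosome 8 circRNA), and DESeq2 did not call Wapl, Rps6kb1 or the longer Arhgap5 form.

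For 3 rises the 0 h counts were so few that a ratio of normalised counts with an exact interval, which covers counting error only, is given in place of a fitted fold. A circRNA that joins positions in Ifi211 and Ifi205, neighbouring interferon-inducible genes (chr1:173905473-174017656), had 0 and 1 counts at 0 h and 19 and 10 at 48 h, 22.9-fold (95% exact interval 3.79 to 934) higher. That of the splicing factor gene Cwf19l2 had 0 and 1 counts at 0 h and 16 and 6 at 48 h, 17.4-fold (95% exact interval 2.81 to 716) higher, and that of the centrosome gene Cep85 3 and 0 counts at 0 h and 14 and 18 at 48 h, 8.41-fold (95% exact interval 2.63 to 42.9) higher. Each of these calls was lost on leaving out at least 1 library: any but 48 h library b for the first and the second, and 0 h library b or 48 h library b for Cep85.

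Among falls, the 2 with the smallest adjusted p join neighbouring genes of the same family. The junction between Ugt3a1 and Ugt3a2, genes of sugar-conjugating enzymes (chr15:9311749-9365377), had 595 and 748 counts at 0 h and 172 and 146 at 48 h (-2.43 ± 0.153), and that between Cyp2j9 and Cyp2j5, epoxygenase genes (chr4:96583977-96658752), had 265 and 407 counts at 0 h and 111 and 110 at 48 h (-1.93 ± 0.174). Both held fewer counts in each 48 h library than in either 0 h library. Since these families have near-identical members, such junctions are uncertain. The circRNA of Aass, the lysine breakdown gene, had 315 and 431 counts at 0 h and 296 and 226 at 48 h (-0.87 ± 0.153). Normalised, these counts were 430 and 419 at 0 h and 242 and 223 at 48 h. Those of the carbohydrate response gene Mlxipl and the zinc finger gene Bnc2 went from 83 and 128 to 61 and 57 counts (-1.17 ± 0.234) and from 106 and 123 to 92 and 57 counts (-0.99 ± 0.2205), and one on chromosome 5 inside no annotated gene from 152 and 186 to 128 and 124 counts (-0.77 ± 0.184). The circRNA of Lrmda went from 9 and 8 to 1 and 0 counts, 21.6-fold (95% exact interval 3.38 to 901) lower. The adjusted p of the 7 falls ranged from 7.7e-53 to 0.00974 in edgeR's quasi-likelihood test with Benjamini-Hochberg adjustment. The calls of Lrmda, Bnc2, Mlxipl and the chromosome 5 circRNA were lost on leaving out 1 library in at least 1 case: all but 0 h library b for Lrmda, 0 h library a or 48 h library b for Bnc2, 48 h library a for Mlxipl, and 0 h library a or 48 h library a for the last.

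**Figure D4:**
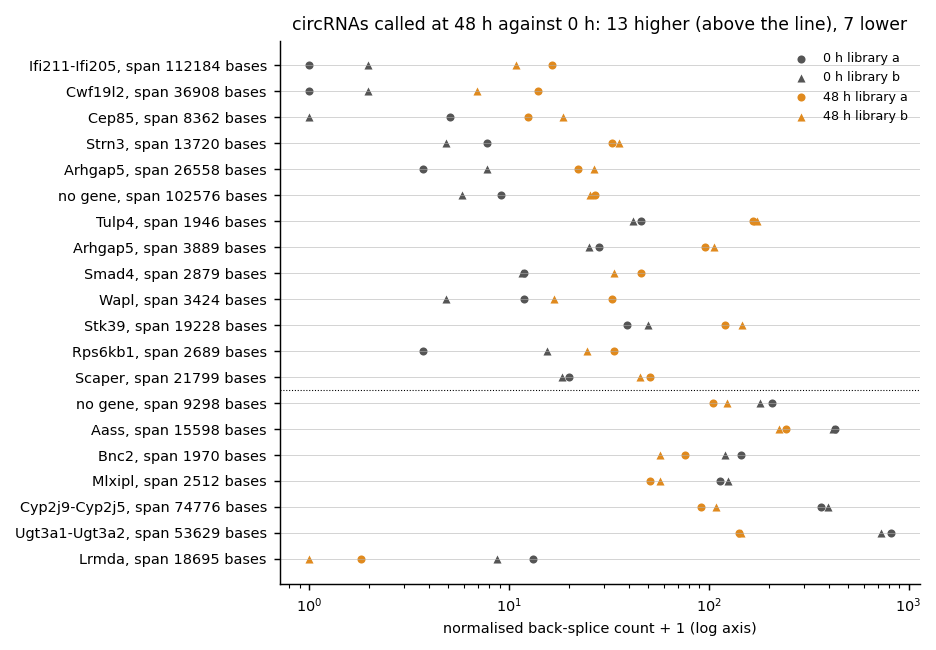
Normalised back-splice count + 1 on a log axis for the 20 circRNAs called at 48 h against 0 h, with 1 point per library, grey for 0 h and orange for 48 h, circles for library a and triangles for library b. Labels give the gene or genes at the ends and the span in bases; the 13 rises lie above the dotted line with every orange point to the right of the grey ones, and the 7 falls lie below it.

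Changes of circRNAs were then set against those of the linear RNA of their host gene, for 1212 circRNAs inside 1 tested host row. The circRNAs of host rows that fell by at least 2-fold (93 circRNAs of 69 hosts) had a median log2 change of -0.32, beside -1.26 for the hosts. Where the host rose by at least 2-fold (25 circRNAs of 19 hosts) the medians were 0.83 and 1.15, and where the host was not called (487) the circRNA median was 0.03. Across these circRNAs, which share libraries and in part hosts, Pearson's r between the changes was 0.214 and Spearman's coefficient 0.264, and for the 339 with a mean of at least 10 counts 0.377 and 0.4003. These are descriptions in sparse counts. The circRNA medians lay between 0 and the host medians in both directions, and the count scale and the FPKM scale are normalised separately.

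limma with Benjamini-Hochberg adjustment on the difference between circRNA and host called 1 of the 1212 (0.0825%). The circRNA of Slc8a1, the sodium-calcium exchanger gene of distal tubule (chr17:81647809-81649638), had 627 and 735 counts at 0 h and 863 and 819 at 48 h, and its host row stood at 64.8 and 66.3 FPKM at 0 h and 7.34 and 7.39 at 48 h. The circRNA's own change was -0.05 ± 0.122 and not called, while the host changed by -2.99 ± 0.129, a difference of 2.94 ± 0.156 (adjusted p = 8.0e-07 in limma with Benjamini-Hochberg adjustment). The circRNA counts of the groups were close once normalised, and the linear row was low in both 48 h libraries. By a mean count of at least 5, which leaves fewer tests, 6 circRNAs were called higher and 3 lower than their host. The circRNA of Scaper, whose host row read 3.47 and 3.48 FPKM on average at 0 h and 48 h, had an adjusted p against its host of 0.0546 in limma with Benjamini-Hochberg adjustment, which misses the threshold. Of the other circRNAs with the most counts, that of Gigyf2 had 168 and 164 counts at 0 h and 294 and 223 at 48 h and that of Rasa2 148 and 195 counts at 0 h and 233 and 181 at 48 h, and neither was called.

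**Figure D5:**
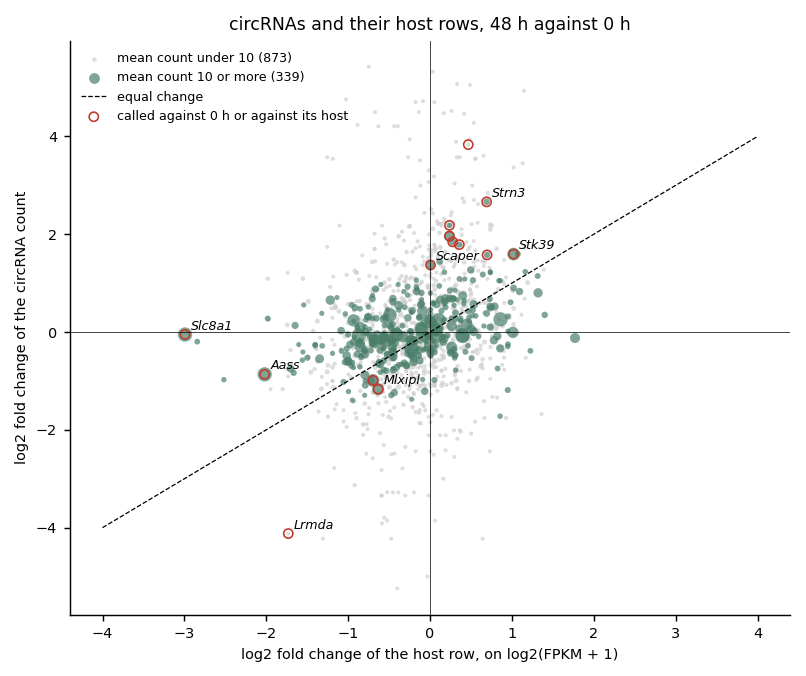
Each point is 1 of 1212 circRNAs, with the log2 fold change of its host row on the horizontal axis and of its own count on the vertical axis, 48 h against 0 h. Green points have a mean of at least 10 counts (339) and grey points fewer, point size grows with the count, red rings mark circRNAs called against 0 h or against their host, and on the dashed line both change equally; Slc8a1 lies at the far left, near 0 on the vertical axis.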

How the data were processed

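The 8 libraries fall into 4 groups of 2 by labelled time, and the 48 h and 0 h groups were compared. Per the submitters' processing notes the tools and build were Bowtie 0.12.2, TopHat2, Cufflinks and mm10, with no roles given, and no source used here names the circRNA caller. Gene rows hold FPKM deposited by the authors, which keep no depth. The circRNA table holds whole back-splice read counts deposited by the authors. The 8 further columns of per-sample values in the files were not used. Members and gene lists were chosen with earlier results of these data known.

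Rows with at least 1 FPKM in 2 libraries were put on the log2(FPKM + 1) scale and fitted in limma 3.58.1 (R 4.3.3; intensity trend, robust), with all 8 libraries in the fit and Benjamini-Hochberg adjustment over all rows tested. Fold changes of low rows are understated by the pseudocount of 1. circRNAs with a count above 0 in at least 4 libraries went into edgeR 4.0.16 (quasi-likelihood fit, TMM, robust), with DESeq2 1.42.0 as an alternative. For circRNA against host, limma took the log2(normalised count + 1) of the circRNA less the log2(FPKM + 1) of its host row. The limma fit of gene rows and the edgeR fit of circRNAs were tested on simulated data, and the circRNA against host step was not. All tests are 2-sided with a threshold of 0.05.

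Of 21874 gene rows, 19742 carry a symbol and 1732 are new loci. By RefSeq spans 14513 rows keep to their own gene, 1395 also span another gene, 3009 reach past their gene and 2957 have no span, so values of spanning or overlapping rows can hold reads of neighbours. Genes named are the 20 largest rises and falls among called rows whose groups do not overlap (predicted genes left out), up to 4 called members a list with the largest change, up to 2 more in the minority direction, and the defining member of a list. Some genes that meet this rule are not reported here. Of 249 such genes, 137 overlap another row. circRNAs named are the called ones and those with the most counts. Alternatives were the pseudocount, the filter, the scaling, the fit on 4 libraries, rows that keep to their own gene, and leaving out each library.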

Additional observations from a re-analysis of the deposited data

How the results depend on the processing

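Among named genes that were called, reversals of direction occurred in 1 setting, quantile normalisation, where Psma4 read 0.028, Psmd6 0.12, Psmb6 0.39 and Actn4 0.13. Without 1 library, 4 to 9 of the 246 called genes lost the call, and the counts of all rows ran from 2690 to 2770 higher and from 4060 to 4176 lower. Quantile normalisation moved 11 named genes by more than 1.5-fold, among them Pck1 to -2.33, Ass1 to -2.07, Aco1 to -1.18, Aldh1l1 to -1.16, Hmgcs1 to -0.90 and Errfi1 to -0.49. A pseudocount of 0.1 moved 41, among them Lif to 4.72, Il6 to 4.01, Slc7a11 to 2.64, Hk2 to 2.38 and Lrrc8d to -4.28. Rows that keep to their own gene, which are fewer, gave 1848 higher and 2690 lower, with 122 and 197 list members. Rises among circRNAs numbered 7 with DESeq2 and 5 to 9 without 1 library, and falls 4 to 7. Against the host, 6 were higher and 3 lower at a mean count of at least 5, 2 and 1 with host rows that keep to their own gene, 1 was lower with the same median in every library, and 4 were lower with only the 4 libraries; the cause was not tested. The uncalled change of the Slc8a1 circRNA read 0.041 by library totals and -0.18 to 0.10 without 1 library (0.084 without 0 h library a, 0.10 without 48 h library a), and that of Rasa2 0.0056 by library totals. A median of 4.25 counts limits what the circRNA test can call. No paired analysis was possible because the columns carry the letters a and b and not the replicate numbers of the labels, so the planned replicate block was not run.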
